A study of Mus musculus with 6 samples.

Results

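A small set of splenic CD4 T cells carried RNA of Ccl5, a chemokine that draws T cells and monocytes, without RNA of Foxp3 or Zbtb16. A cell belonged to the set if it had at least 1 unique molecular identifier (UMI, 1 captured RNA molecule) of Ccl5 and none of Foxp3, Zbtb16, Cd79a, C1qa, C1qb or C1qc, the factors and receptors that mark regulatory T cells, innate-like T cells, B cells and macrophages. Cells entered with at least 200 genes, at most 12000 UMIs, at most 5% of UMIs from mitochondrial genes and at least 10% from ribosomal protein genes. This gave 906 Ccl5+ cells among the 23651 cells kept, and 1232 kept cells had a Ccl5 UMI in all. Of the Ccl5+ cells left out, 205 had a Foxp3 UMI, 106 a Zbtb16 UMI, 10 a Cd79a UMI and 13 a C1q UMI, and a cell could have more than 1 of these. Because Ccl5 and the excluded genes chose the cells, their values are given as a description and are not tested between cell classes. The ribosomal protein and mitochondrial genes whose shares chose the cells stayed among the genes tested, and their calls are counted apart.

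T helper 1 (Th1) cells are CD4 T cells that make interferon gamma under the transcription factor T-bet, which Tbx21 encodes, and that carry the chemokine receptors Cxcr3 and Cxcr6. Some antigen-experienced CD4 T cells also take up parts of the killer cell programme, in which granzymes and perforin are released from granules and Nkg7 sits in the granule membrane. In the spleen of an unimmunized mouse such cells are few among naive cells, which hold the lymph node homing receptor Ccr7 and the factors Lef1 and Tcf7.

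The study compared mice without H2-O to wild-type mice (H2-O WT). H2-O, a class II-like protein of B cells, dendritic cells and thymic epithelium, acts together with H2-M, the peptide editor of class II molecules. CD3+ CD4+ B220- NK1.1- cells were sorted from spleens of C57BL6/J mice, naive and 8 weeks old by the labels, and each of 3 mice labelled H2-O Knockout (H2-O KO) and 3 labelled H2-O WT gave 1 library of 10x Genomics 5' scRNA-seq. The methods name female mice and give an older age than the labels. H2-Oa (chr17:34092340-34095234) checks the labels only where it is used. In Ccl5+ cells it stood at 5.11, 4.74 and 7.55 CPM in the H2-O KO libraries versus 6.07, 3.66 and 4.15 CPM in the H2-O WT libraries, from 23 UMIs in all, where CPM are UMIs of a gene per 1000000 UMIs of the summed cells, and the genotypes overlapped. In 196 kept cells with a Cd79a UMI and none of Foxp3, Zbtb16 or the C1q genes, Cd79a marking the B lineage that uses H2-O, it stood at 23.1, 38.1 and 13.5 CPM in the H2-O KO libraries versus 77.4, 80.9 and 172 CPM in the H2-O WT libraries, from 57 UMIs, and all 3 H2-O KO libraries were below all 3 H2-O WT libraries.

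The 6 libraries held 38073 called cells and 142556677 UMIs, between 9973193 UMIs in H2-O WT replicate 1 and 40237962 in H2-O KO replicate 1. Ccl5+ cells numbered 238, 82 and 297 in replicates 1 to 3 of the H2-O KO libraries against 37, 95 and 157 in those of the H2-O WT libraries, the order kept below, and their summed UMIs ran from 164783 in H2-O WT replicate 1 to 1192008 in H2-O KO replicate 3. Values from H2-O WT replicate 1 therefore had the largest counting error. No barcode of a Ccl5+ cell occurred in more than 1 library, and pairs of libraries shared 4 to 51 barcodes of kept cells. The median Ccl5+ cell held 4424, 4763 and 3846 UMIs in the H2-O KO libraries versus 4837, 5882 and 4651 UMIs in the H2-O WT libraries. The 19714 conventional cells without a Ccl5 UMI, which passed the same filters and exclusions and are called Ccl5-negative cells, held 4828, 5033 and 4140 UMIs in the H2-O KO libraries versus 4961, 5651 and 4881 UMIs in the H2-O WT libraries, so the classes were of like depth. The median ribosomal protein share was lower in Ccl5+ cells (20.3 to 25.5% over the libraries) than in Ccl5-negative cells (27.5 to 32.7%). The minimum on this share removed 3.38, 8.09 and 16.9% of the cells that passed the other filters in the H2-O KO libraries against 47.9, 22.2 and 46.3% in the H2-O WT libraries, and 3.25, 4.65 and 8.90% of the Ccl5+ cells against 26, 15.9 and 31.4%, so it removed a larger share of each H2-O WT library than of any H2-O KO library.

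A few Ccl5+ cells carried UMIs of genes that mark other cell types, although the gate on NK1.1 should remove NK cells. Markers of natural killer (NK), CD8 and gamma-delta T cells and of macrophages, and a threshold of 10 UMIs of Cd74, the invariant chain of class II cells, marked 56 of the 906 cells (6.18%). NK markers (Ncr1, Klra8, Klra4 or Klri2) were found in 9 cells (0.993%), Cd8a in 9, gamma-delta chain genes (Trdc, Tcrg-C1, Tcrg-C2 or Tcrg-C4) in 23 (2.54%), Lyz2 in 5 and at least 10 Cd74 UMIs in 15 (1.66%). Gamma-delta chain UMIs were also found in 0.539 to 1.11% of Ccl5-negative cells over the libraries, and in Ccl5+ cells from 0% in H2-O WT replicate 1 and 0.637% in H2-O WT replicate 3 to 8.54% in H2-O KO replicate 2. A UMI of a marker does not settle what a cell is. The 9 cells with an NK marker held 319 of the 458 UMIs of Gzma, granzyme A, and the 15 Cd74-high cells held 1775 of the 1883 Cd74 UMIs. The summed NK list of 10 genes, with Gzma the most abundant, stood at 257, 526 and 221 CPM in the H2-O KO libraries versus 504, 51.2 and 225 CPM in the H2-O WT libraries, against 12.4 to 38.3 CPM in Ccl5-negative cells. In H2-O WT replicate 1 none of the 37 cells had an NK marker and 1 Gzma UMI was found, and the list there was led by the receptor adaptors Tyrobp (249 CPM) and Fcer1g (194 CPM), which macrophages also use. The B cell list of 10 genes, with Cd74 the most abundant and Ms4a1 at 0, stood at 1604, 310.3 and 741 CPM in the H2-O KO libraries versus 661, 317 and 243 CPM in the H2-O WT libraries. The macrophage list of 12 genes was led by Lyz2 and was highest in H2-O WT replicate 1 (509.8 CPM, against 7.11 to 29.8 CPM in the other libraries). The CD8 list stood at 9.67 to 74.7 CPM, the gamma-delta list at 0 to 52.1 CPM and the haemoglobin list at 0 to 0.839 CPM.

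The share of Ccl5+ cells did not differ by genotype beyond the spread between mice. They made up 3.16, 2.33 and 5.85% of the cells kept in H2-O KO mice (3.78% ± 1.84, SD, n = 3) and 2.82, 2.64 and 6.04% of those in H2-O WT mice (3.83% ± 1.91, n = 3). Replicate 3 of each genotype was the high library, and the genotypes overlapped. The difference of -0.05 percentage points gave p = 1 in the exact two-sided permutation test, in which 3 against 3 mice cannot go below 0.1. Cells with at least 2 Ccl5 UMIs made up 2.43% ± 1.11 in H2-O KO mice and 1.93% ± 0.993 in H2-O WT mice (exact p = 0.5), and cells with at least 10 made up 1.40% ± 0.604 and 1.16% ± 0.697 (exact p = 0.7).

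**Figure D1:**
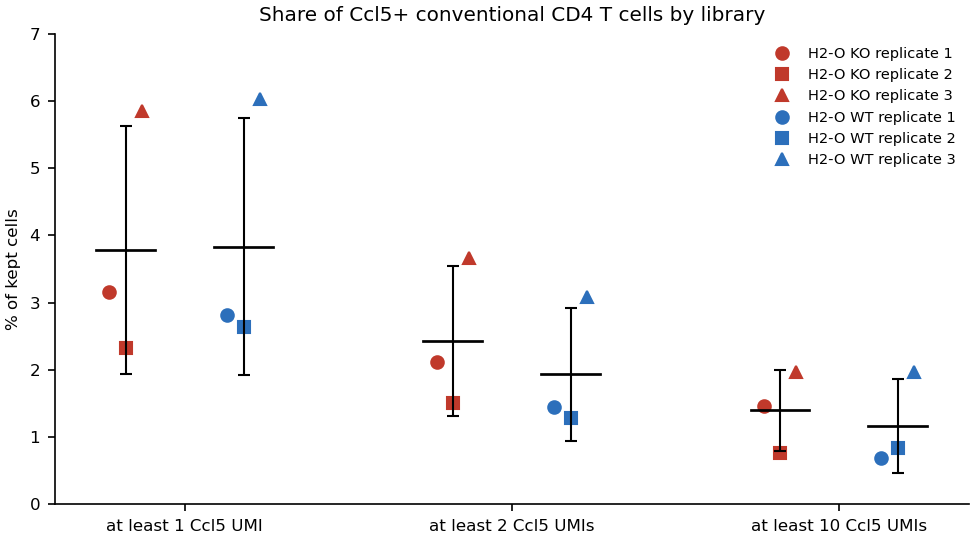
Percent of kept cells (y axis) with at least 1, at least 2 and at least 10 Ccl5 UMIs, 1 point for each library, red for H2-O KO and blue for H2-O WT, with the marker shape giving the replicate, a line at the mean and bars of 1 SD. The genotypes overlap at each threshold, and replicate 3 of either genotype is highest at the first threshold (5.85 and 6.04%).

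The number of Ccl5 UMIs in a cell sorted the set by phenotype. Cells with 1 Ccl5 UMI numbered 363 (40.1%), those with 2 to 4 numbered 140 (15.5%), those with 5 to 9 numbered 76 (8.39%) and those with at least 10 numbered 327 (36.1%). On either side of the threshold, Nkg7 stood at 11.6 to 25.2 CPM in cells with 0 Ccl5 UMIs and 70.9 to 191 CPM in cells with 1, over the 6 libraries. It then reached 124 to 524 CPM with 2 to 4, 315 to 675 CPM with 5 to 9 and 1099 to 1491 CPM with at least 10. Itgb1, the beta 1 integrin chain, stood at 102 to 235 CPM with 0, 199 to 575 CPM with 1 and 618 to 1591 CPM with 2 to 4 Ccl5 UMIs. Tbx21 stood at 2.98 to 7.02 CPM with 0, 10.6 to 52.3 CPM with 1 and 111 to 221 CPM with at least 10. Ccr7 ran the other way and stood at 495 to 647 CPM with 0, 301 to 528 CPM with 1 and 29.7 to 93.4 CPM with at least 10 Ccl5 UMIs, as did Lef1, at 605 to 804 CPM with 0 and 93.2 to 247 CPM with at least 10. Klf2, a factor of quiescent and recirculating T cells, did not, at 692 to 895 CPM with 0, 543 to 784 CPM with 1 and 930.5 to 1165 CPM with at least 10. For Nkg7, Tbx21, Itgb1, Ccr7 and Lef1, cells with 1 Ccl5 UMI thus lay between the Ccl5-negative cells and the Ccl5-rich cells in their range, closer to the former.

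**Figure D2:**
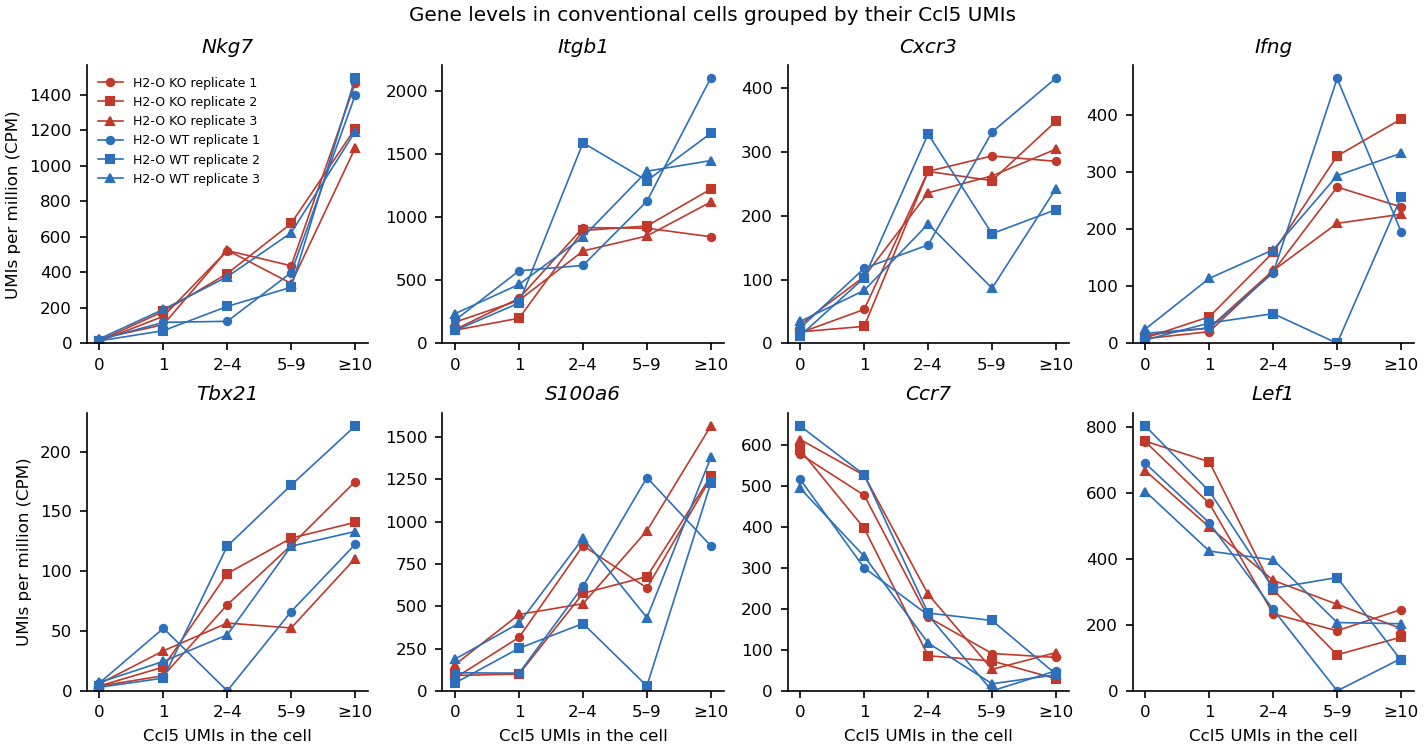
Level in CPM (y axis) of 8 genes against the Ccl5 UMIs of the cell (x axis, 0, 1, 2 to 4, 5 to 9 and at least 10), 1 line for each library, red for H2-O KO and blue for H2-O WT. Nkg7 climbs to 1099 to 1491 CPM while Ccr7 falls to 29.7 to 93.4 CPM in cells with at least 10 Ccl5 UMIs.

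Cells with a Cd79a UMI, a B cell gene, had a single Ccl5 UMI at a like share. Of all 216 kept cells with a Cd79a UMI, 6 (2.78%, exact Clopper-Pearson 95% interval 1.03 to 5.95%) had 1 Ccl5 UMI, against 363 of 20620 conventional cells (1.76%, 1.59 to 1.95%). The pooled share with 1 UMI in conventional cells was thus not above that in Cd79a+ cells. By library it was above in H2-O KO replicate 1 (1.19% against 0 of 61 cells) and H2-O WT replicate 1 (1.57% against 0 of 11). It was below in each other library, and 3 of the 6 Cd79a+ cells came from H2-O WT replicate 3. With so few such cells, a single UMI is not read as expression of Ccl5 in a given cell. Nkg7 and Tbx21 in single-UMI cells as a group lay above every library of cells with 0 Ccl5 UMIs. The Cd79a+ cells are no clean background. They came from the same CD3+ CD4+ sort, and the 196 of them described above carried the T cell identity list at 2426 to 3987 CPM, against 4677 to 5093 CPM in Ccl5-negative cells. At least 10 Ccl5 UMIs were found in 2 of the 216 cells (0.926%, 0.112 to 3.30%), against 1.59% of conventional cells, which lies within that interval, so these few cells did not separate the classes at that threshold either. Median depth was 3429 to 5916 UMIs in the Cd79a+ cells and 4129 to 5653 UMIs in the conventional cells of the 6 libraries. These intervals cover counting error only.

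Ccl5 itself stood at 6759, 2849 and 3871 CPM in replicates 1 to 3 of the H2-O KO libraries and 2106, 4034 and 2980.4 CPM in those of the H2-O WT libraries, and at 351 to 1362 CPM in the Zbtb16+ cells. The other genes proposed as marks of these cells, with results of these data known, were also high in every library. Nkg7 stood at 802, 613 and 537 CPM in the H2-O KO libraries versus 461, 547 and 599.7 CPM in the H2-O WT libraries, and at 11.6 to 25.2 CPM in Ccl5-negative cells, a log2 fold change of 4.99 (SE 0.14) in edgeR with library as a block. Cxcr3 stood at 206, 206 and 209 CPM in the H2-O KO libraries versus 218, 165 and 152 CPM in the H2-O WT libraries, against 11.9 to 34.3 CPM, a log2 fold change of 3.02 (SE 0.14). The 6 libraries of Ccl5+ cells did not overlap with Ccl5-negative cells. Ifng, interferon gamma, stood at 152, 216 and 128 CPM in the H2-O KO libraries versus 127, 104 and 211 CPM in the H2-O WT libraries, against 5.90 to 24.98 CPM (log2 fold change 3.56, SE 0.15). Itgb1 stood at 697, 756 and 717 CPM in the H2-O KO libraries versus 1013, 939 and 929.9 CPM in the H2-O WT libraries, against 102 to 235 CPM (log2 fold change 2.40, SE 0.10). Neither gene overlapped between the classes.

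Th1 genes were higher in Ccl5+ than in Ccl5-negative cells. Over all genes, 1122 of 9662 tested (11.6%) were higher and 933 (9.66%) lower at an adjusted p under 0.05 in the quasi-likelihood test of edgeR, after Benjamini-Hochberg adjustment, and the median log2 fold change of all genes was -0.02. In the Th1 list 19 of 20 genes were higher and 1 was lower, with a median of 2.49. Of the calls, 1 higher and 88 lower were ribosomal protein or mitochondrial genes. A gene can pass the filter on low counts through the class where it is high, so list counts here and below describe the genes tested. Of the 1122 higher genes 175 reached the minimum of the filter (3.08 CPM) in fewer than 6 Ccl5-negative libraries, and of the 933 lower genes 109 did so in fewer than 6 libraries of Ccl5+ cells. Such genes entered the test through the class where they are high, so levels and log2 fold changes are given for them, here and against the other classes, without the p-value of the call. Tbx21 stood at 101, 87.6 and 65.4 CPM in the H2-O KO libraries versus 60.7, 98.8 and 73.2 CPM in the H2-O WT libraries, against 2.98 to 7.02 CPM in Ccl5-negative cells, a rise of 3.96 (SE 0.22) on the log2 scale. Cxcr6, the receptor of Cxcl16, stood at 65.5, 161 and 68.8 CPM in the H2-O KO libraries versus 97.1, 76.9 and 74.6 CPM in the H2-O WT libraries, against 3.63 to 5.74 CPM, a rise of 4.21 (SE 0.20, adjusted p = 2.6e-16). Ly6c2, which encodes the Ly6C antigen, rose by 3.89 (SE 0.18, adjusted p = 1.1e-16), from 14.4 ± 6.53 CPM to 238 ± 76.5 CPM (SD, n = 6). None of these 3 genes overlapped between the classes in any library. Il2rb, the shared chain of the receptors of the cytokines that sustain memory T and NK cells, reached 317 ± 26.9 CPM against 44.7 ± 12.2 CPM (log2 fold change 2.75, SE 0.10, adjusted p = 1.1e-18).

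Of the cytokine receptors of the Th1 pathway, the IL-18 receptor chain Il18r1 rose by 1.62 (SE 0.11, adjusted p = 5.9e-13). The other chain, Il18rap, and Il12rb1 and Il12rb2, which bind IL-12, were under the minimum of the filter in 4 or more Ccl5-negative libraries. They stood at 41.3 ± 15.4, 18.7 ± 3.93 and 10.7 ± 5.81 CPM in Ccl5+ cells against 2.44 ± 0.55, 2.79 ± 0.63 and 2.08 ± 0.84 CPM (SD, n = 6), with log2 fold changes of 3.94, 2.58 and 1.98. Runx3, a factor of Th1 and CD8 T cells, rose by 1.00 (SE 0.08) and Stat4, the signal carrier of IL-12, by 0.60 (SE 0.08). Eomes, the T-box factor of NK and memory CD8 T cells, rose by 1.33 (SE 0.34, adjusted p = 0.0046), and the call was lost without H2-O KO replicate 1 (adjusted p = 0.27). Txk, a Tec family kinase, was the Th1 list gene that fell (log2 fold change -0.45, SE 0.07, adjusted p = 8.3e-06).

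Of the chemokines other than Ccl5, Ccl3, Ccl4, Xcl1 and Cxcl10 were tested, and each was under the minimum of the filter in at least 1 Ccl5-negative library, so their levels are given as a description. Ccl4, a chemokine that attracts T cells and monocytes, stood at 192, 18.9 and 35.2 CPM in the H2-O KO libraries versus 509.8, 97.0 and 26.3 CPM in the H2-O WT libraries, and was highest in H2-O WT replicate 1, the library with the most Lyz2. It was higher by 4.98 (SE 0.59) on the log2 scale, and by 3.67 without the 56 cells with markers of other cell types, a setting chosen after the data were seen. Xcl1, the chemokine that attracts cross-presenting dendritic cells, stood at 32.3, 28.4 and 10.1 CPM in the H2-O KO libraries versus 54.6, 14.6 and 37.3 CPM in the H2-O WT libraries, a log2 fold change of 4.63 (SE 0.40). Every library of Ccl5+ cells was above the Ccl5-negative cells (0.266 to 2.13 CPM).

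Of 22 cytotoxic genes, 16 were tested, 13 rose and none fell, with a median of 1.58. Granzyme RNA was sparse. Gzmb, granzyme B, stood at 55.3, 18.9 and 23.5 CPM in the H2-O KO libraries versus 6.07, 10.98 and 27.6 CPM in the H2-O WT libraries, and at 0.106 to 0.859 CPM in Ccl5-negative cells, a log2 fold change of 6.23 (SE 0.46). Gzmk, granzyme K, stood at 96.2, 14.2 and 45.3 CPM in the H2-O KO libraries versus 6.07, 51.2 and 48.4 CPM in the H2-O WT libraries, a log2 fold change of 4.64 (SE 0.32). Both were lowest in H2-O WT replicate 1 and varied widely between libraries. Prf1, perforin, stood at 16.2 ± 4.31 CPM against 13.3 ± 1.99 CPM, a log2 fold change of 0.20 (SE 0.21, adjusted p = 0.6) that did not pass the test, and Gzma was not tested. After each cell was thinned to 1500 UMIs, Gzmb was found in 2.90% ± 1.63 of Ccl5+ cells of H2-O KO mice and 1.81% ± 2.24 of those of H2-O WT mice, and in 0.0214% of Ccl5-negative cells. Nkg7 was found in 43.8% ± 3.73 and 32.9% ± 7.66, against 1.56%. At this depth the set held Nkg7 in a minority of cells (24.2 to 46.2% over the libraries) and granzyme B in at most 4.70%. It is thus called by its Ccl5 rule and not as cytotoxic.

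Other genes of killer cells rose as well. Ctsw, cathepsin W, reached 157 ± 41.9 CPM against 42.8 ± 8.42 CPM (log2 fold change 1.65, SE 0.08, adjusted p = 9.3e-16). Fasl, the death receptor ligand, rose by 1.52 (SE 0.11), and the granzyme B inhibitor Serpinb9 by 1.80 (SE 0.23). Klrk1, which encodes the receptor NKG2D and was under the minimum of the filter in Ccl5-negative cells, had a log2 fold change of 5.18 (SE 0.36). The granule proteoglycan Srgn rose by 0.58 (SE 0.04) to 981 ± 80.5 CPM. Thinned to 1500 UMIs, 115 of the 342 Ccl5+ cells with an Nkg7 UMI also had a Cxcr3 UMI (31.5 to 37.5% over libraries), against 7.06 to 32.0% of those without. For Ifng the shares were 22.2 to 37.5% and 1.72 to 13.6%.

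The start sites of genes that led the contrast are shown because T-bet and Runx factors, whose genes Tbx21 and Runx3 were higher, are known to act at such promoters. Of 17 genes, those proposed as marks and the 15 largest rises by the rule stated with the methods, 13 had a promoter in the RefSeq table of GRCm38.p6, which spans 250 bases before to 50 after the start, and Ccl5, Ccl4, Cd74 and Tyrobp did not. The letters GGTGTGA (or TCACACC, the same on the other strand), the core of T-box sites, were in 1 of the 13 promoters and in 3.98% of all 32851. The letters TGTGGT (or ACCACA), the core bound by Runx factors, were in 6 of the 13, Nkg7, Cxcr3, Cxcr6, Ly6c2, Myo1f and Fcer1g, and in 16.8% of all. Both strands were searched, and the motifs can share letters but did not in the promoters printed. Capitals mark these letters in the promoters of Nkg7, Cxcr3 and Cxcr6, whose levels were given above. A match describes the letters and is not a site shown to be used.
Nkg7 (chr7:43436888-43437187, plus strand): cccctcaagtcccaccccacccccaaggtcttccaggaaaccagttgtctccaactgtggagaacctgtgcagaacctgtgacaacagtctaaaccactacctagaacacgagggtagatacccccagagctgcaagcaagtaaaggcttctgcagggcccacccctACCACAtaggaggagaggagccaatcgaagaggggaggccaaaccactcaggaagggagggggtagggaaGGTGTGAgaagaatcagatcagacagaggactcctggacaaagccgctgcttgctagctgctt
Cxcr3 (chrX:101734098-101734397, minus strand): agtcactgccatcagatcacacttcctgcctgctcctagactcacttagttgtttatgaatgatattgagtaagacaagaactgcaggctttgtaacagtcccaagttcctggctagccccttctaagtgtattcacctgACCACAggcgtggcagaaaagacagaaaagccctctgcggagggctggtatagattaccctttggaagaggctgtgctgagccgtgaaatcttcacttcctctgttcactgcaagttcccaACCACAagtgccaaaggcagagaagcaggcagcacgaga
Cxcr6 (chr9:123806227-123806526, plus strand): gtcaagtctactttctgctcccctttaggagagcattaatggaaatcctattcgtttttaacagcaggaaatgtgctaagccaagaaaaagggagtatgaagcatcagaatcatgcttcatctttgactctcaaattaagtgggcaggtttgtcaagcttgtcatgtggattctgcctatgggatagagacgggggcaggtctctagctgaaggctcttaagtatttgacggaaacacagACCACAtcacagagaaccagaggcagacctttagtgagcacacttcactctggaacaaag
The Nkg7 promoter held both motifs, and the T-box letters stood nearer to the start of the gene.

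Genes of trafficking and of the cytoskeleton of antigen-experienced cells rose together. Of 18 tested S100, annexin and related genes 17 were higher and none lower, with a median of 1.24. S100a4 reached 333 ± 75.8 CPM against 42.7 ± 20.2 CPM (log2 fold change 2.91, SE 0.09, adjusted p = 1.2e-20), S100a6 703 ± 159 CPM against 111 ± 52.3 CPM, and Ahnak, a large scaffold protein, 642 ± 84.5 CPM against 105 ± 35.4 CPM. Among chemokine and homing receptors, 10 of 15 rose and 3 fell. Ccr2, the receptor of Ccl2, rose by 3.66 (SE 0.25) and Cx3cr1, the fractalkine receptor, by 4.48 (SE 0.42). Of the integrin and adhesion list 13 of 17 rose and 2 fell. Itga1, the alpha 1 chain of a collagen receptor, rose by 5.64 (SE 0.59) and Itga4, the alpha 4 chain that pairs with Itgb1 in VLA-4, by 1.06 (SE 0.08), while Itga6 fell by 0.53 and Itgb3 by 0.72. Other rises were those of Lgals3, galectin-3 (log2 fold change 3.65, SE 0.23), Myo1f, an unconventional myosin of leukocytes (log2 fold change 3.30, SE 0.16), and Gna15, a G protein alpha subunit (log2 fold change 3.28, SE 0.20).

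Naive cell genes were lower. Of 18 tested, 15 fell and none rose, with a median of -0.92. Ccr7 stood at 229.7, 178 and 289 CPM in the H2-O KO libraries versus 188, 317 and 177 CPM in the H2-O WT libraries, against 495 to 647 CPM, a log2 fold change of -1.42 (SE 0.06, adjusted p = 8e-17). Every library of Ccl5+ cells was below every library of Ccl5-negative cells. Lef1 fell by 1.14 to 350.0 ± 31.8 CPM and Tcf7 by 0.67 to 573 ± 91.9 CPM, so both stayed well detected in the set as a whole. For Lef1 this mean joined 424 to 696 CPM in cells with 1 Ccl5 UMI and 93.2 to 247 CPM in cells with at least 10. The largest falls by the naming rule were those of Igfbp4, an insulin-like growth factor binding protein (log2 fold change -1.54, SE 0.08, adjusted p = 7e-16), Pdlim4, Ccr7, Treml2, Ifngr2, the second chain of the interferon gamma receptor, St8sia6, Ly6c1, Actn1, Als2cl and Atp1b1, between -1.54 and -1.22. Klf2, the factor that keeps T cells in recirculation, did not pass the test, with 831 ± 84.2 CPM against 784 ± 65.4 CPM, and neither did Il7r, the receptor of IL-7 (428 ± 74.2 CPM against 384 ± 16.1 CPM).

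Genes of other helper lineages that could be tested were in part higher too. Of 7 Th2 list genes 3 were tested and rose, Gata3, Ccr4 and Ccr8, with a median of 1.14, and of 8 Th17 list genes Rora was tested and rose. Il17a, Il5 and Il13 had no UMI in Ccl5+ cells and Il4 had 28, and none of these was tested. Rora rose by 2.12 (SE 0.13), and Gata3, the factor of Th2 cells, by 0.53 (SE 0.10). Ccr4 and Ccr8, chemokine receptors of Th2 and regulatory T cells, rose by 1.14 (SE 0.28) and 1.48 (SE 0.27). Among 12 genes of follicular helper cells, Maf, Icos, Pdcd1 and Sh2d1a rose and none fell. Of 9 Treg list genes tested 6 rose, with Ctla4 at 139.9 ± 10.8 CPM against 69.2 ± 16.0 CPM, and Il2ra, the high-affinity IL-2 receptor chain, did not pass (log2 fold change 0.41, SE 0.25, adjusted p = 0.28). Against all other kept cells, which include the Foxp3+ cells, the Treg genes Ikzf2 and Tnfrsf4 had negative log2 fold changes. Of 9 inhibitory receptors 6 rose, among them Tigit (log2 fold change 1.66, SE 0.16, adjusted p = 1.5e-09), Cd160 (log2 fold change 2.41, SE 0.33) and the ectonucleotidase Entpd1 (log2 fold change 2.65, SE 0.32). Lag3 was higher by 1.33 (SE 0.43), and the call was lost without H2-O KO replicate 1 (adjusted p = 0.1) or H2-O WT replicate 2 (adjusted p = 0.25).

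Genes induced by T cell receptor signals moved in both directions. Nr4a1 and Cd69 differed by 0.01 and 0.07 and did not pass the test, while Nr4a2 rose by 1.23 (SE 0.12) and Myc fell by 0.52, and in all 4 of 12 list genes rose and 1 fell. Of 12 interferon-induced genes 9 rose, with a median of 0.34, and Isg15 rose by 0.69 (SE 0.11). Of 15 dissociation stress genes 9 rose and 2 fell, with a median of 0.55, and Atf3 rose by 2.00 (SE 0.46), a call lost without H2-O KO replicate 1 (adjusted p = 0.0504). Of 10 genes of the cell cycle 5 were tested and 4 rose, and Mki67 stood at 25.2 ± 10.7 CPM. Of 10 genes of T cell identity 2 rose and 1 fell, with a median of 0.02. Thy1 and the costimulatory receptor Cd28 rose by 0.37 (SE 0.05) and 0.27 (SE 0.06), and Trbc2, a constant region of the beta chain, fell by 0.20 on the log2 scale. Cd4 stood at 288, 244 and 232 CPM in the H2-O KO libraries versus 309, 382 and 301 CPM in the H2-O WT libraries, against 219 to 326 CPM, and overlapped, and Cd3e differed by 0.04.

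Genes of other cell types were also found at higher levels. Of 10 NK genes 4 were tested, Eomes, which is described above, and Cd160, Fcer1g and Tyrobp, the latter 2 being adaptors of activating receptors, which were under the minimum of the filter in at least 1 Ccl5-negative library. H2-Eb1, a class II beta chain, was higher by 3.71 (SE 0.63), and Cd74 stood at 1059, 78.2 and 388 CPM in the H2-O KO libraries versus 449, 78.7 and 35.9 CPM in the H2-O WT libraries, against 8.82 to 117 CPM in Ccl5-negative cells, a rise of 3.18 (SE 0.45, adjusted p = 1.8e-06). Cd74 was highest in H2-O KO replicate 1 and overlapped between the classes. Without the 56 cells with markers of other cell types, Fcer1g, Tyrobp, H2-Eb1 and Ccl3 were not tested. Nkg7, Gzmb, Gzmk, Xcl1 and Klrk1 kept log2 fold changes of 4.95, 5.91, 4.71, 4.38 and 4.71. The setting removes Ccl5+ cells with at least 10 Cd74 UMIs, so its Cd74 value (-0.73) follows from that choice and is no test. In that setting 2011 genes were called, 1118 higher and 893 lower, and 1867 of them were among the 2055 called before.

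Against other antigen-experienced cells, the Th1 and killer cell genes still set the Ccl5+ cells apart. The 2365 conventional cells with a Cd44 UMI and no Ccl5 UMI served for this comparison, Cd44 being the adhesion receptor that marks activated and memory T cells. Of 8190 genes tested, 315 (3.85%) were higher and 268 (3.27%) lower in edgeR, with a median of -0.01. Of the lower genes 72 were ribosomal protein or mitochondrial genes, and 53 of the higher and 36 of the lower genes were under the minimum of the filter (8.45 CPM) in a library of the class where they were low. The Th1 list had 15 of 18 genes higher and none lower (median 1.13), and the cytotoxic list 11 of 13 higher and none lower (median 1.42). Nkg7 stood at 65.7 ± 15.4 CPM in Cd44+ cells, and the log2 fold change was 3.23 (SE 0.14). Tbx21 was higher by 2.31 (SE 0.18, adjusted p = 3.2e-09), Cxcr6 by 2.25 (SE 0.14) and Ly6c2 by 2.24 (SE 0.21). Ctsw, at 40.5 ± 15.3 CPM in Cd44+ cells, was higher by 1.87 (SE 0.10). Ccr2, Hopx, a homeodomain protein of Th1 cells, and Myo1f followed with 1.72, 1.60 and 1.55. Ccl4 was higher by 2.48 (SE 0.57), and the call was lost without H2-O KO replicate 1 (adjusted p = 0.086).

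Some follicular helper genes were lower in this comparison. Of 11 tested 5 were lower and none higher, with a median of -0.50, and the rest did not pass. Among the 5, Cd200, Bcl6 and Tox2 were under the minimum of the filter in at least 1 library of Ccl5+ cells, so their levels are a description. Cd200, a surface ligand of follicular helper cells, was lower by a log2 difference of -1.33 (SE 0.18), with 22.3 ± 11.5 CPM in Ccl5+ and 53.1 ± 16.8 CPM in Cd44+ cells. Bcl6, the factor of these cells, was lower by a log2 difference of -1.29 (SE 0.24), and Tox2, Izumo1r and Slamf6 by -1.30, -0.82 and -0.50. Naive genes were again lower in 13 of 18 cases, with Ccr7 at -0.94 (SE 0.08, adjusted p = 6.6e-09). Il7r and Klf3 were higher, by 0.29 and 0.38, and the call for Il7r was lost without H2-O KO replicate 2 (adjusted p = 0.077), H2-O KO replicate 3 (adjusted p = 0.057) or H2-O WT replicate 3 (adjusted p = 0.11). Other large falls were Id3, which holds back effector differentiation, Tnfsf8, Lrig1, Pdlim4, Actn1, St8sia6 and Als2cl, between -1.01 and -0.80. The S100 and annexin list had 12 of 18 genes higher (median 0.48) and the integrin list 7 of 14 (median 0.39), with none lower in either.

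**Figure D3:**
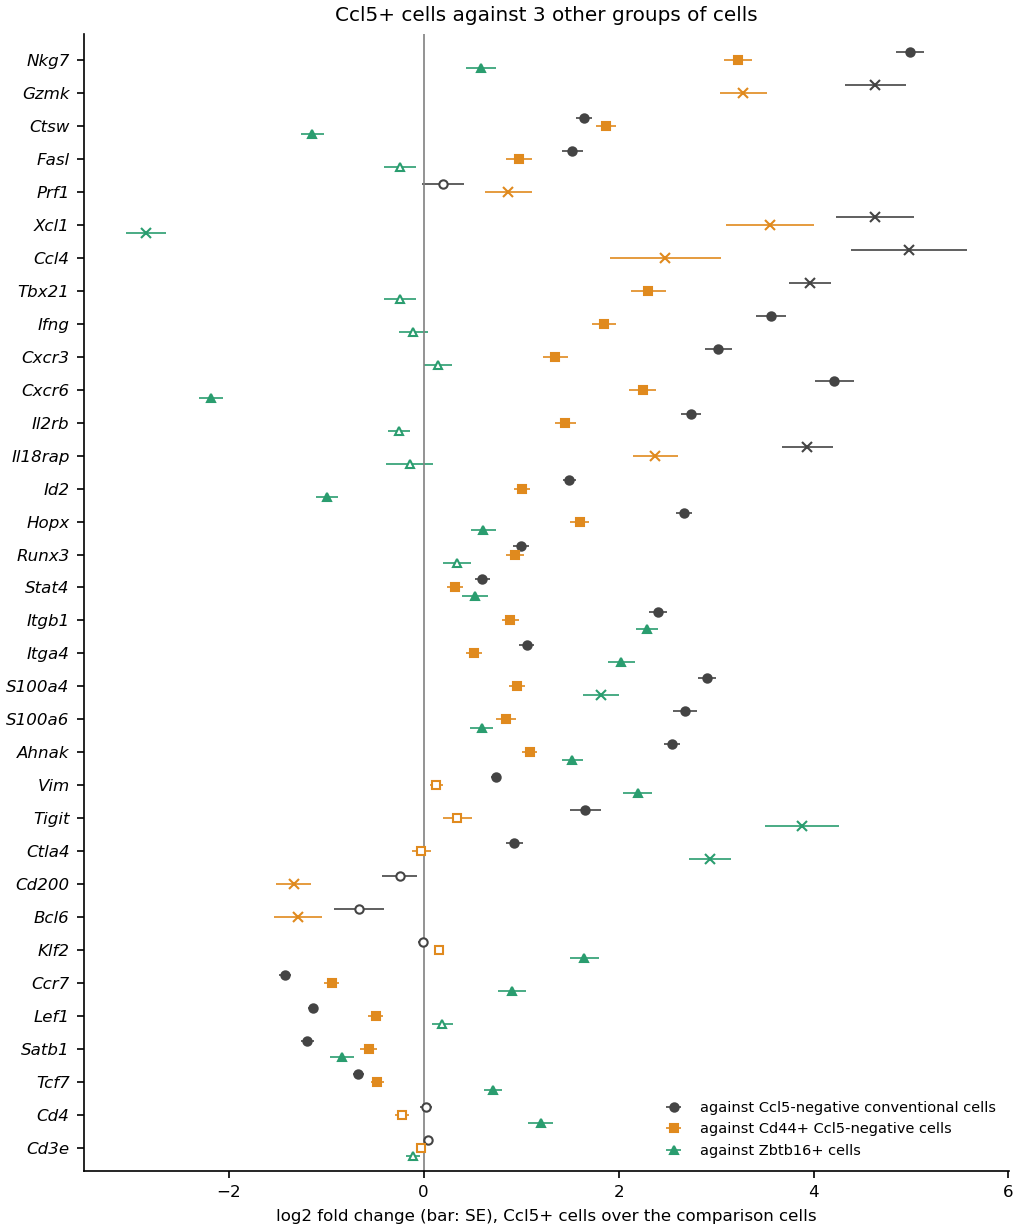
Log2 fold change (x axis, points, with bars of 1 SE) of 34 genes, grouped by role, in Ccl5+ cells against Ccl5-negative, Cd44+ Ccl5-negative and Zbtb16+ cells, filled where the adjusted p in edgeR was under 0.05 and open where not, with a cross where a gene was under the minimum of the filter in the class where it was low and no symbol where it was not tested. Th1 and killer cell genes lie to the right against the first 2 classes, and against Zbtb16+ cells Itgb1 (2.29) and Cxcr6 (-2.19) lie on opposite sides.

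Zbtb16+ cells, taken with any number of Ccl5 UMIs, also carried Th1 genes, and these differed from Ccl5+ cells in both directions. Zbtb16 encodes PLZF, the factor of NKT and other innate-like T cells, and the Zbtb16+ class held 229 kept cells. Of 5053 genes tested 302 (5.98%) were higher and 282 (5.58%) lower in Ccl5+ cells, with a median of 0.00. Here 108 of the higher and 90 of the lower genes were under the minimum (28.6 CPM) in a library of the class where they were low. Tbx21 differed by -0.24 (SE 0.16, adjusted p = 0.44) and did not pass the test, with 81.2 ± 17.2 CPM in Ccl5+ and 108 ± 28.9 CPM in Zbtb16+ cells. Ifng and Cxcr3 differed by -0.11 (SE 0.15) and 0.15 (SE 0.15). Over the Th1 list, 3 of 17 genes were higher and 4 lower (median 0.15). Cxcr6 was lower by a log2 difference of -2.19 (SE 0.12, adjusted p = 1e-13), as were Il12rb1 (-1.89), Id2 (-0.99) and Txk (-0.83). Xcl1 stood at 200.2 ± 93.2 CPM in Zbtb16+ cells and 29.6 ± 16.1 CPM in Ccl5+ cells (log2 fold change -2.85, SE 0.20), and Ctsw was lower by a log2 difference of -1.14 (SE 0.12).

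Adhesion, homing and inhibitory genes differed in both directions. Of the integrin and adhesion list 6 of 14 genes were higher and 4 lower (median 0.15), of the chemokine and homing receptors 4 of 9 were higher and 3 lower (median 0.15), of the inhibitory receptors 2 of 4 were higher and 1 lower (median 1.43), and of the naive genes 11 of 18 were higher and 2 lower (median 0.50). Cd226 and Itgb3 (-1.11 and -1.62), Ccr2 (-1.43), Cd160 (-2.71) and Satb1 (-0.84) were among the lower. Itgb1 stood at 96.6 to 218 CPM in Zbtb16+ cells, below every library of Ccl5+ cells, and the log2 fold change was 2.29 (SE 0.11). Tigit stood at 59.6, 54.5 and 62.9 CPM in the H2-O KO libraries versus 109, 49.4 and 87.1 CPM in the H2-O WT libraries, against 0 to 10.9 CPM in Zbtb16+ cells (log2 fold change 3.88, SE 0.38), and Ctla4 was higher by 2.94 (SE 0.22). Klf2 was higher by 1.65 (SE 0.15, adjusted p = 1.5e-09), with 831 ± 84.2 CPM against 281 ± 122 CPM, and S1pr1, the receptor for exit from lymphoid organs, by 1.39 (SE 0.12). Cd4 was higher by 1.20 (SE 0.13, adjusted p = 5.8e-08). Of the S100 and annexin list 13 of 16 genes were higher and none lower, led by Vim (2.20), Crip1 (1.94) and S100a4 (1.82). Tnfrsf4, the costimulatory receptor OX40, Casp1, Glipr2, Il10ra and the beta segments Trbv3, Trbv20 and Trbv31 were the other large rises, between 2.29 and 3.14. The largest falls included the gamma chain genes Tcrg-V1, Tcrg-C4, Tcrg-C1 and Trgv2, the IL-25 receptor Il17rb and Il4 (log2 fold change -4.21, SE 0.26), and also Ckb, Ccr9, Lmo4 and Rab4a. Ccr7 was higher by 0.91, but with at least 2 Ccl5 UMIs the log2 fold change was -0.55.

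**Figure D4:**
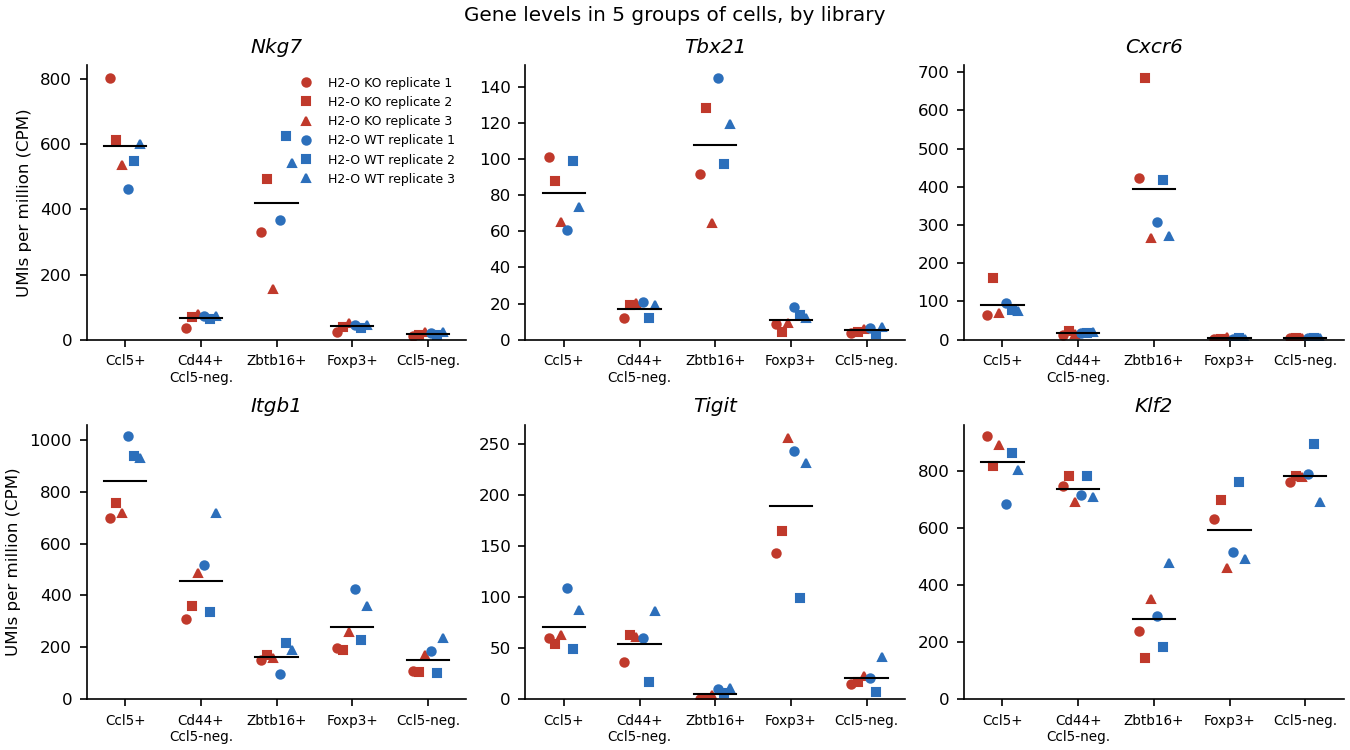
Level in CPM (y axis) of Nkg7, Tbx21, Cxcr6, Itgb1, Tigit and Klf2 in Ccl5+, Cd44+ Ccl5-negative, Zbtb16+, Foxp3+ and Ccl5-negative cells (x axis), 1 point for each library, red for H2-O KO and blue for H2-O WT, with a black line at the mean. Nkg7 is high in Ccl5+ (593 CPM) and Zbtb16+ cells (419 CPM), and Itgb1 is higher in Ccl5+ (842 CPM) than in Zbtb16+ cells (163 CPM).

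Between genotypes, the Ccl5+ cells differed in few genes. Of 6899 genes tested, 10 (0.145%) were higher in H2-O KO mice and 19 (0.275%) lower, in edgeR with Benjamini-Hochberg adjustment, and 1150 (16.7%) had 3 libraries of each genotype that did not overlap in CPM. Of the 29, 7 were counted in the ribosomal or mitochondrial share that chose the cells, Rpl5, Rpl10, Rpl13a, Rpl23a, Rps12, Rps15 and mt-Cytb, which left 22, 9 higher and 13 lower. With the replicate number as a block 50 genes were called (21 higher, 29 lower), 28 of them among the 29, and Caprin1 was not (adjusted p = 0.055 in edgeR). Fewer genes were called by DESeq2 (22, with 17 among the 29), with at least 2 Ccl5 UMIs (14), in cells with a Cd4 and no Cd8a or Cd8b1 UMI (13), without H2-O WT replicate 2 (11) and after thinning to 1500 UMIs (1). Without the ribosomal protein minimum, which removed a larger share of H2-O WT cells, 112 were called (40 higher, 72 lower), 21 of them among the 29. Each library was 1 mouse, so p-values measure the spread between 3 mice of each genotype. The marks of the set did not pass the test without the block. Nkg7 differed by 0.25 (SE 0.13, adjusted p = 0.58), Cxcr3 by 0.29 (SE 0.14, adjusted p = 0.51) and Ifng by 0.01 (SE 0.23, adjusted p = 1). Itgb1 was lower in all 3 H2-O KO libraries than in any H2-O WT library, and its difference of -0.41 (SE 0.09, adjusted p = 0.053) did not pass, but did with the block (-0.40, adjusted p = 0.019 in edgeR). Tbx21 (0.04), Il2rb (0.14), Gzmk (0.44) and Gzmb (0.92) did not pass either. List medians were 0.05 for Th1 genes, 0.23 for cytotoxic genes, -0.16 for naive genes and 0.21 for S100 and annexin genes, against 0.01 for all genes, and the single list gene called was Hspa1b. With the block, S100a10 (0.47, adjusted p = 0.0057), Ifi27l2a (0.44, adjusted p = 0.0048), Ccl4 (-1.12, adjusted p = 0.033), Hsp90aa1 (-0.50, adjusted p = 0.042), Hsp90ab1 (-0.34, adjusted p = 0.017) and Zfp36 (-0.48, adjusted p = 0.022) also passed in edgeR. So did Cd74 (1.69, adjusted p = 0.00094 in edgeR), most of whose UMIs sat in the 15 Cd74-high cells. Ccl4 overlapped between the genotypes, with 192 CPM in H2-O KO replicate 1 above 26.3 CPM in H2-O WT replicate 3. Its highest level was in H2-O WT replicate 1 (509.8 CPM), which held 37 Ccl5+ cells. H2-Aa (1.86) is given without the p-value of its call, since it was under the minimum of the filter in a library of Ccl5+ cells.

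Of the 29, 10 were under the minimum of the filter (15.7 CPM) in a library of the genotype where they were low, among them Baiap3, Hspa1b, E430024P14Rik and Gm49719 in all 3 such libraries. The others were Surf2, Ppm1m, Tmem181a, H2-Eb1, Gm21887 and Gm47283. These 10 entered the test through the genotype where they are high, so levels and log2 differences are given without the p-value of the call. Genes on chromosome 17, which holds the H2 region and H2-Oa, made up 9 of the 29 called and 370 of the 6899 tested (5.36%). Of the 9, 6 were among the 10 under the minimum (Tmem181a, Baiap3, H2-Eb1, E430024P14Rik, Hspa1b and Gm49719), and Glo1, Dnah8 and H2-T22 were not, so no share of the calls is read from this count. Glo1 (chr17:30584936-30626871), glyoxalase 1, which clears methylglyoxal, stood at 151, 189 and 156 CPM in the H2-O KO libraries versus 72.8, 67.7 and 66.3 CPM in the H2-O WT libraries, higher in H2-O KO by 1.25 (SE 0.17, adjusted p = 0.00054). Dnah8 (chr17:30624354-30877365), an axonemal dynein chain, stood at 134, 99.5 and 169 CPM in the H2-O KO libraries versus 60.7, 58.6 and 48.4 CPM in the H2-O WT libraries, higher by 1.36 (SE 0.21, adjusted p = 0.0027). For both genes each H2-O KO library was above each H2-O WT library. Their annotated spans overlap on opposite strands, so the split of counts between them is uncertain. Hspa1b (chr17:34956436-34959238), a heat shock protein of the HSP70 family, stood at 1.70, 2.37 and 10.9 CPM in the H2-O KO libraries versus 36.4, 108 and 363 CPM in the H2-O WT libraries, lower by a log2 difference of -5.13 (SE 0.61), and as a near-identical copy of Hspa1a its counts are uncertain. Baiap3 (chr17:25242659-25256364), a protein of vesicle release, stood at 0.851, 0 and 0.839 CPM in the H2-O KO libraries versus 30.3, 45.8 and 34.5 CPM in the H2-O WT libraries, lower by a log2 difference of -5.43 (SE 0.54). The H2-O KO libraries were at or near 0, apart from all H2-O WT libraries. H2-T22 (chr17:36037128-36042747), a nonclassical class I gene recognised by some gamma-delta T cells, stood at 509, 488 and 481 CPM in the H2-O KO libraries versus 303, 262 and 327 CPM in the H2-O WT libraries, higher by 0.72 (SE 0.12, adjusted p = 0.003), a call lost without H2-O WT replicate 2 (adjusted p = 0.095). Tmem181a and the antisense genes Gm49719 (log2 fold change 3.66, SE 0.49) and E430024P14Rik (log2 fold change -2.32, SE 0.30) were the others, with H2-Eb1, and counts of antisense genes are uncertain where they overlap a partner. Tmem181a was called in 1 of the 6 fits that left out a library (adjusted p from 0.067 to 0.36 in the other 5).

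H2-Eb1 stood at 284, 21.3 and 73.8 CPM in the H2-O KO libraries versus 12.1, 22.0 and 2.76 CPM in the H2-O WT libraries, higher by 3.63 (SE 0.76), and was the called gene whose genotypes overlapped. It moved with Cd74 (1059, 78.2 and 388 CPM in the H2-O KO libraries versus 449, 78.7 and 35.9 CPM in the H2-O WT libraries), most of which sat in the 15 Cd74-high cells, and without the 56 cells with markers of other cell types H2-Eb1 was too low to be tested. The call for H2-Eb1 was lost without H2-O KO replicate 1 (adjusted p = 0.2) or any H2-O WT replicate (adjusted p from 0.093 to 0.26). In the setting without the 56 cells, 30 genes were called, 9 higher and 21 lower, 24 of them among the 29, and B2m was not (adjusted p = 0.055).

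Outside chromosome 17, B2m, the light chain of class I molecules, stood at 1831, 1722 and 1836 CPM in the H2-O KO libraries versus 2209, 2366 and 2449.8 CPM in the H2-O WT libraries, lower by a log2 difference of -0.39 (SE 0.08, adjusted p = 0.041), with no overlap. The call held in 1 of 6 fits that left out a library, that without H2-O WT replicate 1. Surf2, a nucleolar protein, stood at 40.8, 61.6 and 47.8 CPM in the H2-O KO libraries versus 18.2, 14.6 and 15.2 CPM in the H2-O WT libraries, higher by 1.62 (SE 0.30), and its call was lost without H2-O WT replicate 2 (adjusted p = 0.17) or 3 (adjusted p = 0.12). Ppm1m, a protein phosphatase, stood at 58.7, 52.1 and 55.4 CPM in the H2-O KO libraries versus 12.1, 18.3 and 27.6 CPM in the H2-O WT libraries, higher by 1.33 (SE 0.26), and its call was lost without H2-O KO replicate 1 (adjusted p = 0.2) or 3 (adjusted p = 0.065) or H2-O WT replicate 2 (adjusted p = 0.23). Ide, the insulin-degrading enzyme, was higher by 1.04 (SE 0.21). Nufip2, Galnt6, Caprin1, Macf1, Rack1 and Tpt1 were lower, with log2 differences from -0.93 to -0.35. Of the 6 fits that left out a library, Rack1 was called in 5, Nufip2 and Macf1 in 2, Caprin1 and Tpt1 in 1 and Galnt6 in 0, and Ide was called in 1. Gm21887 and Gm47283, annotated on chromosomes X and Y with near-identical copies, were lower by a log2 difference of -3.25 (SE 0.42) and -2.48 (SE 0.40) and are uncertain. The 7 called ribosomal protein genes were lower, and mt-Cytb was higher by 0.37, and they are given as values, since the shares of such genes chose the cells (Rplp2, the seventh, was not counted in the share). Rpl23a stood at 559.9, 597 and 487 CPM in the H2-O KO libraries versus 1141, 968 and 812 CPM in the H2-O WT libraries and Rps15 at 717, 699 and 706 CPM in the H2-O KO libraries versus 1183, 1288 and 1069 CPM in the H2-O WT libraries. Of the genes outside the shares that reached the minimum of the filter in every library of both genotypes, Glo1 and Dnah8 were called in each of the 6 fits.

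The same mice gave like genotype differences in Ccl5-negative cells for most of these genes. There 1242 of 11737 genes were called, and 26 of the 29 had an adjusted p under 0.05. Among the 26, Baiap3 was under the minimum of the filter (0.623 CPM) in every H2-O KO library of Ccl5-negative cells. Side by side, the log2 differences in Ccl5+ and Ccl5-negative cells were 1.25 and 1.52 for Glo1, 1.36 and 1.64 for Dnah8, -5.13 and -4.73 for Hspa1b and -0.39 and -0.36 for B2m. They were 1.62 and 0.11 for Surf2 and 1.33 and 0.20 for Ppm1m, for which Ccl5-negative cells did not pass (adjusted p = 0.32 and 0.093). H2-Eb1, with 3.63 and 2.78, did not pass in Ccl5-negative cells either (adjusted p = 0.14 in edgeR). A test of the difference itself, the class by genotype term in edgeR, called 0 of 10195 genes (0%), with 341 at an unadjusted p under 0.05 and 0 called by DESeq2. For Surf2 and Ppm1m its adjusted p was 0.36 and 0.74. The term called 8 genes without the filter on low counts, 1 with thinning to 1500 UMIs, 1 in cells with a Cd4 and no Cd8a or Cd8b1 UMI, and 0 to 3 when a library was left out.

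**Figure D5:**
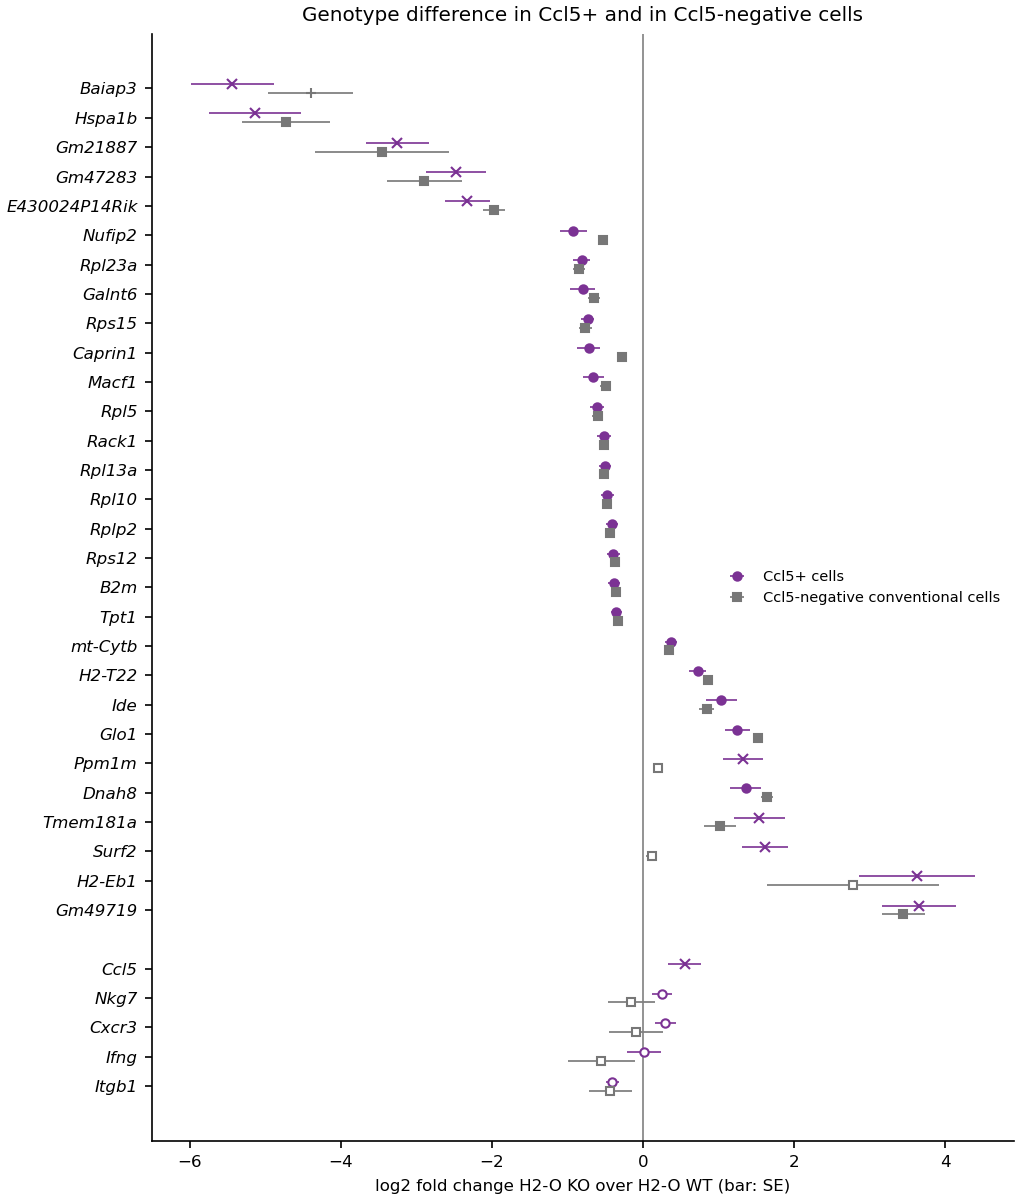
Log2 fold change of H2-O KO over H2-O WT (x axis, with bars of 1 SE) for the 29 genes called in Ccl5+ cells and for the genes proposed as marks, in Ccl5+ cells (purple circles) and Ccl5-negative cells (grey squares), filled where the adjusted p in edgeR was under 0.05. Crosses mark Ccl5 and the genes under the minimum of the filter in the genotype where they were low (10 in Ccl5+ cells, Baiap3 in Ccl5-negative cells), whose calls are not shown. The pairs of symbols lie close for most genes, as for Glo1 (1.25 and 1.52), and the marks run from -0.41 for Itgb1 to 0.55 for Ccl5.

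Shares of Ccl5+ cells with a UMI were compared for 16 genes after thinning to 1500 UMIs, which left out 4, 1 and 36 shallower cells of the H2-O KO libraries and 4, 5 and 18 of the H2-O WT libraries. Nkg7 was found in 46.2, 45.7 and 39.5% of cells over the H2-O KO libraries against 24.2, 35.6 and 38.8% over the H2-O WT libraries. Cd44 was found in 10.3, 11.1 and 10.7% and in 18.2, 14.4 and 14.4%, and Cd4 in 30.8, 27.2 and 31.8% and in 33.3, 40.0 and 33.1%. In 4 of the 16 genes, these among them, the genotypes did not overlap, with H2-O KO higher for Nkg7 and lower for Cd44 and Cd4. Each gave p = 0.1 in the exact permutation test, the smallest that 3 against 3 can give, and 0.4 after Benjamini-Hochberg adjustment over the 16 genes, so none passed. Without thinning Nkg7 was found in 55.9, 58.5 and 50.2% over the H2-O KO libraries against 40.5, 43.2 and 47.8% over the H2-O WT libraries, the single gene of the 16 that then did not overlap, and with at least 2 Ccl5 UMIs 0 of the 16 were separated.

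The make-up of the set by Ccl5 UMIs was also compared between the genotypes, a measure chosen after the data were seen. Cells with 1 Ccl5 UMI made up 33.2, 35.4 and 37.4% of Ccl5+ cells over the H2-O KO libraries (35.3% ± 2.09, SD, n = 3) against 48.6, 51.6 and 49.0% over the H2-O WT libraries (49.8% ± 1.59). All 3 H2-O KO libraries were lower, with p = 0.1 in the exact permutation test, the smallest possible. When cells were thinned to 1500 UMIs before the rule, the shares were 27.4, 26.7 and 33.0% against 29.2, 39.7 and 35.6%, and the genotypes overlapped (exact p = 0.2). Since the single-UMI cells carried less Nkg7 and more Ccr7 than the rest, the genotype test was repeated in cells with at least 2 Ccl5 UMIs, where 14 genes were called, 13 of them among the 29.

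Of the variable segments of the T cell receptor, few were called in Ccl5+ cells. None of 22 Trbv segments (0%) was called against Ccl5-negative cells in edgeR, with 1 at an unadjusted p under 0.05 and 1 called by DESeq2, and 1 of 56 Trav segments (1.79%) was called. Trav14-3 (chr14:53763173-53763694) took 0.251, 0.775 and 2.67% of Trav UMIs over the H2-O KO libraries and 0, 2.39 and 0.775% over the H2-O WT libraries, against 2.03 to 3.52% in Ccl5-negative cells. It was lower by a log2 difference of -1.64 (SE 0.46, adjusted p = 0.022), and 4 of the 6 libraries lay below the range of the Ccl5-negative cells. The call was lost without H2-O KO replicate 1 or 2 or H2-O WT replicate 2 or 3, and near-identical copies of the Trav14 genes make its counts uncertain. Trbv16 took 19.5% of Trbv UMIs in H2-O KO replicate 1 and 16.4% in H2-O WT replicate 3, and 3.58 to 7.03% in the other libraries, against 5.81 to 8.21% in Ccl5-negative cells. These 2 libraries stood above the rest, and over the 6 libraries the difference of 0.17 did not pass the test.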

How the data were processed

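CD4 T cells of 3 H2-O KO and 3 H2-O WT spleens were sequenced as 6 libraries. The authors deposited whole-number UMI counts per gene and called cell, without normalization, and the submitters' processing notes name Cell Ranger 6.1.2 and mm10. Cells were filtered and chosen as stated above, and doublets were treated only by the maximum of 12000 UMIs. The cells and the 26 gene lists were chosen with earlier results of these data known. Counts were summed per library and class in Python 3.11.15 and tested in edgeR 4.0.16 (quasi-likelihood test, default filter on low counts, TMM, Benjamini-Hochberg over all genes tested), with library as a block between classes. Ccl5, Foxp3, Zbtb16, Cd79a and the C1q genes (and Cd44 against Cd44+ cells) were left out of the tests between classes, while ribosomal protein and mitochondrial genes stayed in all tests. DESeq2 1.42.0, other filters, depths and each library left out were alternatives. Shares per library were tested by exact permutation (two-sided). Promoters are from RefSeq (GRCm38.p6) and gene positions from GENCODE M21 (GRCm38).

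Genes named were the proposed marks, H2-Oa and H2-Ob, all genes called between genotypes, and the 15 largest rises and 10 largest falls against Ccl5-negative cells. Against the other classes the 10 largest of each were taken. These needed at least 50 CPM in the mean of 1 class and the same sign in 6 libraries. Up to 6 members of each list and called V segments were added. A few genes that the rule names are left out of the text, and counts of alternatives leave them out. Others named were chosen after their values were seen. On simulated data 79.9, 91.1 and 93.9% of tested genes changed 2-fold were recovered against Ccl5-negative, Cd44+ and Zbtb16+ cells, with 8, 13 and 5 false calls. Between genotypes 68.1% were recovered, with 4 false calls, and 5 of 5 Trbv and 6 of 8 Trav segments changed 4-fold were recovered.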

Additional observations from a re-analysis of the deposited data

How the results depend on the processing

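Against Ccl5-negative cells, 2055 genes were called, 1142 (546 higher, 596 lower) when cells were thinned to 1500 UMIs before the rules, and 1545 to 2122 when a library was left out. Against Cd44+ cells the 583 calls became 381 by DESeq2, 918 with at least 2 Ccl5 UMIs, 316 with thinning and 367 to 597 in the fits that left out a library, with 367 without H2-O KO replicate 1. Against Zbtb16+ cells the 584 calls became 283 by DESeq2, 50 with thinning and 411 to 597 in the fits that left out a library. Between genotypes the 29 calls became 87 without the filter on low counts, 14 with at least 2 Ccl5 UMIs, 1 with thinning, 13 in cells with a Cd4 and no Cd8a or Cd8b1 UMI and 112 without the ribosomal protein minimum. They became 11 to 28 when a library was left out, with 11 without H2-O WT replicate 2 and 18 without H2-O KO replicate 1. With a replicate block there were 50 calls (21 higher, 29 lower), 28 of them among the 29. Deviations of same-numbered libraries correlated by 0.18, -0.01 and 0.10 in Ccl5+ sums (3217 genes) and by 0.13, 0.32 and 0.53 in the deeper Ccl5-negative sums (2889 genes), where H2-O KO replicate 1 correlated more with H2-O WT replicate 2 (0.44). Whether the numbers pair the mice is therefore not settled, and the blocked values stand beside the results they change. The class by genotype term called 8 genes without the filter, 1 with thinning, 1 with the Cd4 rule and 0 to 3 when a library was left out. Trbv calls were 1 by DESeq2, 1 over cells with the segment and 0 to 2 with a library left out, and Trav calls were 2 by DESeq2, 0 with at least 2 Ccl5 UMIs, 3 over cells with the segment and 0 to 1 with a library left out.

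The difference in the share of Ccl5+ cells was 0.53 percentage points without the ribosomal minimum and -1.09 to 1.05 when a library was left out. The pairs of the replicate block differed by 0.34, -0.31 and -0.18, with an exact sign-flip p of 1. The difference in single-UMI cells was -9.72 in cells with at least 2000 UMIs, -5.80 after thinning and -15.5 to -13.4 when a library was left out. Genes separated in the UMI shares were 4, with 1 without thinning, 1 at 3000 UMIs and 0 with at least 2 Ccl5 UMIs. Signs turned against Ccl5-negative cells for Tyrobp under the Cd4 rule (-0.56), and for Ikzf2 and Tnfrsf4 against all other kept cells (-0.13 and -0.36). They turned against Cd44+ cells for Cd74 under the Cd4 rule (-0.40), and against Zbtb16+ cells for Ccr7 with at least 2 Ccl5 UMIs (-0.55). The cause of these turns was not tested. Cd74 also turned against Ccl5-negative cells without cells with markers of other cell types (-0.73), which follows from removing cells by their Cd74 UMIs. For single genes, 3060, 2163 and 1794 of the alternative values against the 3 classes and 2881 of those between genotypes kept direction and side of the threshold, and 82, 78, 109 and 136 fell below it. Depth limits the values of H2-O WT replicate 1, which held 37 Ccl5+ cells.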
